A study of Mus musculus with 2 samples.

Results

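Integrin and leukocyte adhesion genes were followed in RNA from the chromatin of stimulated mouse macrophages. The set holds 37 genes of 55536 annotated genes, chosen by name: 15 integrin alpha chains, 7 beta chains, 6 adhesion ligands and other surface receptors, and 9 cytoplasmic partners of integrins. Each symbol was tied to its gene identifier through the transcript names, and all 37 were found. Macrophages grown from C57BL/6J bone marrow had been given lipid A at 100 ng/ml for 75 min, and the chromatin fraction of their RNA was sequenced after removal of ribosomal RNA. Lipid A, the membrane anchor of bacterial lipopolysaccharide, is sensed by the receptor TLR4. The series has 1 group of 2 libraries, biological replicates 1 and 2, made from 250 ng and 500 ng of RNA with fragments of 250 to 400 bases. Both carry the same donor label, age and sex are given as not collected, and separate mice are not stated, so each SD may reflect cultures. No untreated cells, other time or other fraction was analysed here, and no contrast between conditions could be made: every value below is a level in stimulated cells or a difference between the libraries.

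Integrins are surface receptors made of an alpha and a beta chain, which bind matrix proteins or counter-receptors on other cells. An alpha chain reaches the surface only with a beta chain, and talin and kindlin bind the beta chain tail to switch the receptor on. In macrophages the chains that pair with Itgb2 serve adhesion to endothelium and uptake of opsonised particles, those that pair with Itgb1 bind fibronectin and Vcam1, and CD44 binds hyaluronan. Chromatin RNA is rich in transcripts still being made or spliced, so its levels stand nearer to transcription than to the amount of protein.

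The libraries held 21453621 and 29638768 estimated counts on annotated genes. TPM, the unit of level used here, scales counts by transcript length and by the table's total. It ran higher in replicate 2 for 93.7% of the 7633 protein-coding genes that reached 1 TPM in both replicates, which are called expressed below. The SD of a level (n = 2) therefore mixes that shift with the gene's own difference. Of 9 macrophage markers, 8 were expressed, among them Adgre1 at 80.2 and 171 TPM and Csf1r at 45.6 and 40.7 TPM. Their summed level was 332 TPM in replicate 1 and 573 TPM in replicate 2. Markers of T and NK cells (0 of 8 expressed, summed level 1.35 to 1.53 TPM), B cells (0 of 5, 0.07 to 0.16 TPM) and fibroblasts (0 of 6, 0.58 to 1.5 TPM) were near 0, with Cd3e, Cd3g, Cd8a and Pax5 listed at 0. In the authors' second quantification, made directly from the reads, 2 T and NK markers and 1 B cell marker reached 1 TPM in both libraries: Cd3d at 13 and 28.8 TPM, Cd4 at 1.81 and 2.29 TPM and Ms4a1 at 1.03 and 1.87 TPM.

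Of the 37 genes, 22 were expressed (59.5%). Among all protein-coding genes, 34.7% were expressed. The median of the 22 was 22 TPM in replicate 1 and 26.6 TPM in replicate 2, and that of all expressed protein-coding genes was 5.82 and 10.4 TPM. At least 10 TPM was reached in both libraries by 15 genes. Over all 37 genes the range ran from 0 TPM in both libraries (Itga3) to 1312 TPM (Cd44 in replicate 2), and the median of the 37 mean levels was 3.58 TPM.

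**Figure D1:**
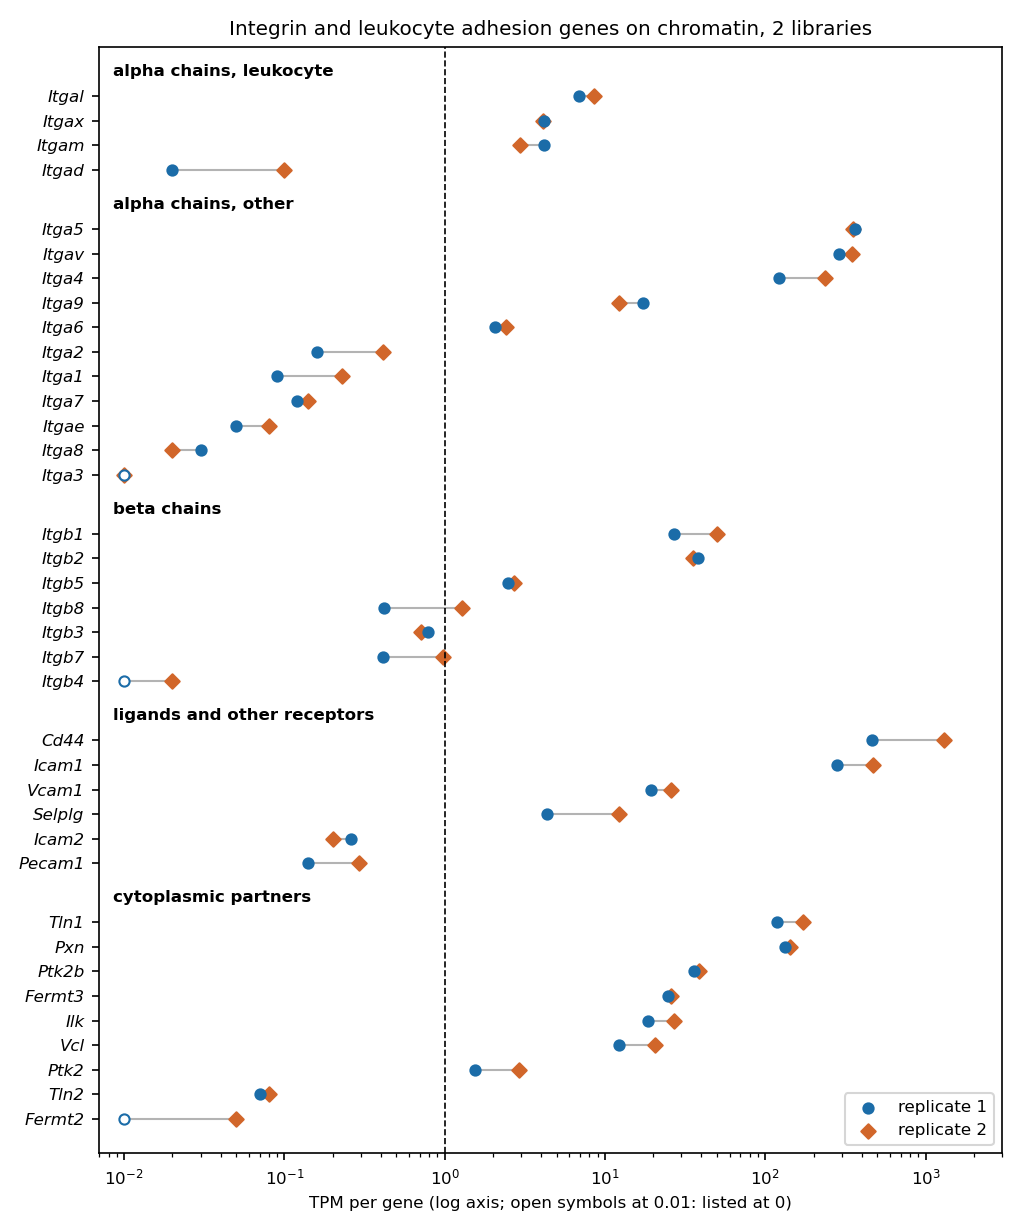
Level of each of the 37 genes in TPM (log axis) by role, with replicate 1 as circles and replicate 2 as diamonds; open symbols at the left edge are listed at 0, and the dashed line marks 1 TPM. Cd44, Icam1, Itga5, Itgav, Itga4, Tln1 and Pxn lie above 100 TPM in both libraries, and Itga3 is at 0 in both.

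Cd44, the hyaluronan receptor, was the highest of the set. It was at 461 TPM in replicate 1 and 1312 TPM in replicate 2 (887 ± 602 TPM, SD, n = 2), which ranked it 13 and 7 among 22028 protein-coding genes. Cd44 (ENSMUSG00000005087.17) lies on chromosome 2, 102811141 to 102901665, minus strand, on mm10. Its transcripts share their first exons and then differ in how many of 10 variable exons follow, which lengthen the extracellular stem of the protein. These exons are 90 to 207 bases long and every length is a multiple of 3. The junctions that tell the transcripts apart are printed to show how the forms differ. No junction reads were counted, and the levels below are the authors' estimates over whole transcripts. Each has the last 15 bases of the shared exon (102853015 to 102853236) in lower case and the first 15 bases that follow in capitals, read 5′ to 3′ on the minus strand from the GENCODE M21 transcripts.
Cd44-203, no variable exon: gcaccttggccaccaGAGATCGAGACTCAT
Cd44-207, with 5 variable exons: gcaccttggccaccaATATAGACAGAATCA
Cd44-208, with 7 variable exons: gcaccttggccaccaTTGCAAGTACTCCAC
Cd44-201, with 10 variable exons: gcaccttggccaccaTTGCCTCAACTGTGC
Cd44-209, intron kept: gcaccttggccaccaGTAAGGAGAATGGCA

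The exon after the shared exon is at 102828542 to 102828610 in Cd44-203, at 102842261 to 102842377 in Cd44-207, at 102842836 to 102842949 in Cd44-208 and at 102848657 to 102848782 in Cd44-201. Cd44-209 instead reads on into intron 5 of Cd44-203 (102828611 to 102853014), of which it holds 1122 of 24404 bases. The capitals of Cd44-209 open with the GT of a splice donor.

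By TPM, the intron-holding transcript Cd44-209 carried the largest share of the gene. It stood at 209 TPM in replicate 1 and 661 TPM in replicate 2, which was 45.2% and 50.4% of Cd44 TPM. Its share of the gene's estimated counts was 26.2% and 29.7%, and there the longer Cd44-207 led, with 16574 and 51967 counts against 10287 and 35198. The 7 transcripts with variable exons together stood at 159 and 425 TPM, and the standard form without them, Cd44-203, at 94.2 and 226 TPM. Within the coding transcripts, the forms with variable exons took 62.8% and 65.2%, so the libraries were alike in this split.

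The split among coding forms changed with the second quantification. There the standard form was at 54.2 and 61.2 TPM, and forms with variable exons took 85.8% and 93.5% of the coding level. Cd44-207 was at 116 and 339 TPM in the first quantification and at 1.88 and 5.02 TPM in the second. Cd44-201 moved the other way, from 19 and 59.6 TPM to 139 and 516 TPM. Cd44-208 moved with Cd44-201, from 2.38 and 5.03 TPM to 101 and 337 TPM. Cd44-206, at 0 and 0.29 TPM in the first, was at 69.2 and 0.5 TPM in the second, the only form that was high in 1 library alone. The intron-holding form stayed nearer, at 34.6% and 42.6% of the gene's TPM in the second quantification, but at 22.2% and 24.5% of its counts, where Cd44-201 held 48.4% and 57.6%. By these estimates, variable-exon forms exceeded the standard form in both quantifications and both libraries, but which form carried the excess was not settled. On the minus strand, Cd44-207 and Cd44-201 end at 102811141 and Cd44-203 at 102812547. Reads past the latter end could not be given to the standard form. The 10 variable exons also lie within intron 5 of Cd44-203, so unspliced RNA holds them. The part of either in the excess was not tested.

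**Figure D2:**
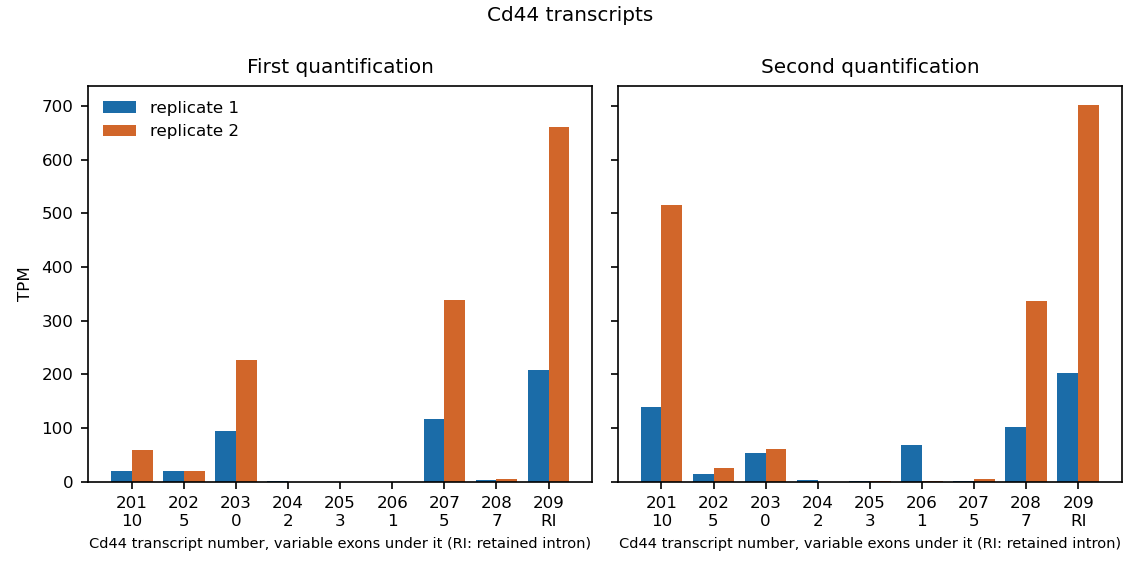
Level of each annotated Cd44 transcript in TPM, with the transcript number and its number of variable exons on the horizontal axis (RI, retained intron) and bars for replicates 1 and 2, in the first (left) and second (right) quantification. The retained intron transcript is the highest bar of replicate 2 in both panels, while the leading coding transcript is 207 on the left and 201 on the right.

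Icam1, the endothelial and myeloid ligand of the Itgb2 integrins and a gene known to answer NF-kB, was at 281 and 473 TPM and ranked 42 and 39 in the libraries. It lies on chromosome 9, 21015985 to 21028817, plus strand. It has only 2 annotated transcripts above 1 TPM. The coding Icam1-201 was at 122 and 208 TPM, and the retained intron form Icam1-202 was at 158 and 265 TPM, or 56.4% and 56.1% of the gene. In estimated counts the share of Icam1-202 was 52.5% and 52.2%, so it did not rest on a short transcript. Icam1-202 holds 1825 of the 6364 bases of intron 2 (chromosome 9, 21019180 to 21025543). Its first exon-to-intron step is printed with the intron in capitals, to show the donor that this form reads through. Reads across it were not counted.
Icam1-202: ccatcaccgtgtattGTGAGTGGCAGGGCC

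The gene also overlaps 511 exonic bases of the antisense gene Gm47079 (5.41 and 8.3 TPM). Whether the counting used strand is not stated in the sources used here, and a transfer of reads was not tested. Of the 37 genes, 21 have a promoter window, and among these the ICAM1-type kappa B site, searched on both strands, is in Icam1 alone. The Icam1 promoter is shown for that reason. The searched site is named for ICAM1, so its match here was foreseen and is not a test. The window is from RefSeq on GRCm38.p6 (chr9:21015690-21015989, plus strand), from 250 bases before the RefSeq start to 50 after it, with the site in capitals.
Icam1 promoter: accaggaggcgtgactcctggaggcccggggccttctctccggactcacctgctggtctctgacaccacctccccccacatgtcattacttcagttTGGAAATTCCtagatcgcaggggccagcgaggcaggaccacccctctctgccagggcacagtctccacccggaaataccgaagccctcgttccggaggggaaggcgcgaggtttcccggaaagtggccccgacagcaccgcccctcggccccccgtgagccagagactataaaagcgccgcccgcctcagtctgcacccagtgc

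The site lies 154 bases upstream of that start. Such a site was present for 0.0999% of 27025 genes with a window of that length. The general kappa B consensus was present for 3 of the 21 genes (Ilk, Itga3 and Vcl) and for 9.55% of all genes, also on both strands. These are matches of letters, and no binding was measured.

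The other ligands and receptors were lower. Vcam1, the ligand of the Itga4 integrins, was at 19.3 and 25.9 TPM. Selplg, the selectin ligand PSGL, was at 4.37 and 12.2 TPM, with 56.3% and 58.3% of it on the retained intron form Selplg-202. Icam2 had 2 and 3 counts, at or under the limit of 3 counts that is taken as not distinguished from 0 here, and Pecam1 was at 0.14 and 0.29 TPM. Both are known for endothelial cells, platelets and leukocytes. Of 8 endothelial markers, 1 was expressed in both libraries, Vwf at 31.6 and 41.7 TPM. Kdr was at 0.94 and 3.17 TPM, Cdh5 was at 0.74 and 0.08 TPM and Cldn5 was listed at 0. In the second quantification 2 of the 8 were expressed, Vwf at 40.2 and 73.2 TPM and Kdr at 1.81 and 5.53 TPM. The summed level of the 8 markers in the first was 33.3 and 44.9 TPM. Their part in the levels of Vcam1 and Icam1 was not tested.

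Among the alpha chains, the RNA was dominated by 3 that pair with beta chains other than Itgb2. Itga5, the fibronectin receptor chain, was at 365 and 351 TPM (358 ± 9.59 TPM) and ranked 20 in replicate 1 and 77 in replicate 2. Itgav, the chain of the vitronectin receptors, was at 289 and 348 TPM and ranked 37 and 79. Itga4, the chain that binds Vcam1, was at 121 and 237 TPM and ranked 186 and 159. Together these took 95.7% and 96.8% of the summed alpha chain level of 810 and 967 TPM. Itga9, a chain closely related to Itga4, followed at 17.4 and 12.2 TPM, and the laminin receptor chain Itga6 at 2.06 and 2.4 TPM. Of the Itga9 level, 11.35 and 7.56 TPM lay on Itga9-204, a processed transcript of 650 bases. Coding transcripts of Itga9 were at 5.86 and 4.68 TPM, below those of the leukocyte chain Itgal at 6.53 and 7.35 TPM.

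The leukocyte alpha chains that pair with Itgb2 were far lower than the leading 3 and took 1.88% and 1.62% of the summed alpha chain level. Itgal, the chain of LFA, was at 6.87 and 8.53 TPM. Itgax, known as CD11c, was at 4.15 and 4.08 TPM. Itgam, known as CD11b and used as a surface marker of macrophages, was at 4.19 and 2.96 TPM, from 453 and 405 counts. Itgal was the highest of these in both libraries, and the Itgax values lay within the range of Itgam by this measure. In the second quantification Itgax, at 6.54 and 7.78 TPM, was above Itgam, at 4.15 and 5.08 TPM. On coding transcripts of the first, Itgax, at 2.54 and 2.57 TPM, was below Itgam, at 3.87 and 2.96 TPM. Itgad was at 0.02 and 0.1 TPM in the first quantification, from 2.02 and 8.04 counts.

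These genes lie in 1 cluster on chromosome 7, all on the plus strand: Itgam at 128062640 to 128118491, Itgax at 128129547 to 128150657 and Itgad at 128154376 to 128223816, with Itgal apart at 127296260 to 127335138. In the annotated transcripts, Itgal, Itgam and Itgax shared 0 stretches of 31 bases with each other. Itgad and Itgax shared 512, which is 11.3% of the Itgad and 10.7% of the Itgax stretches, so their split is uncertain. Itgam shares exons with the predicted gene Gm49368 on the same strand over 3450 bases. That gene was at 0.03 and 0.12 TPM, and the sum of both was 4.22 and 3.08 TPM.

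The 6 remaining alpha chains of the set (Itga1, Itga2, Itga3, Itga7, Itga8 and Itgae) were not expressed, at 0 to 0.41 TPM. Itga3, a laminin receptor chain, had 0 counts in both libraries, which allows up to 0.14 CPM in replicate 1 and 0.101 CPM in replicate 2 by counting error alone. Itgae, the chain known from T cells of epithelia, had 5 and 9 counts. These are chains known mainly from matrix-bound, epithelial or muscle cells, apart from Itgae.

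Of the 7 beta chains, Itgb1 and Itgb2 carried 94.1% and 93.8% of the summed level of 69.1 and 91.6 TPM. Itgb1, the common partner of the matrix-binding chains, was at 27.1 and 50.3 TPM. Itgb2, the leukocyte chain CD18, was at 37.9 and 35.6 TPM. Their order was reversed between the libraries: Itgb2 led in replicate 1 with 54.9% of the sum and Itgb1 in replicate 2 with 54.9%. In the second quantification, Itgb1 led in both libraries by gene TPM, at 45.9 and 96.2 TPM against 41.7 and 41.5 TPM for Itgb2. By its estimated counts the order was still reversed, with 4073 and 8878 for Itgb1 and 4549 and 4530 for Itgb2. Coding transcripts there also showed the reversal, at 15.8 and 51.1 TPM for Itgb1 and 32.1 and 32.7 TPM for Itgb2. Itgb5, a partner of Itgav, was at 2.48 and 2.71 TPM. Itgb8 (0.42 and 1.29 TPM), Itgb3 (0.79 and 0.71 TPM) and Itgb7 (0.41 and 0.98 TPM) were under 1 TPM in at least 1 library, and Itgb4 had 0 and 3 counts.

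The summed alpha level was 11.7 times the summed beta level in replicate 1 and 10.6 times in replicate 2. Within known pairs the balance went in opposite directions. Every chain that pairs with Itgb2 was under it: the Itgal to Itgb2 ratio of TPM was 0.181 and 0.24, that of Itgax 0.109 and 0.115, and that of Itgam 0.11 and 0.0832. Against Itgb1, the Itga5 ratio was 13.5 and 6.99 and the Itga4 ratio 4.47 and 4.71. The Itgav chain exceeded each of its lesser partners by more still, with ratios to Itgb5 of 117 and 129, to Itgb3 of 366 and 491 and to Itgb8 of 689 and 270. The Itga6 chain was below Itgb1, at 0.076 and 0.0478. These are ratios of RNA on chromatin and say nothing of protein.

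Gene levels in TPM include short non-coding transcripts, which need few reads to reach a high TPM. With protein-coding transcripts alone, the Itga4 to Itgb1 ratio was 1.65 and 1.97 and the Itga5 ratio 13.2 and 5.7. The ratios to Itgb2 were then 0.195 and 0.228 for Itgal, 0.0759 and 0.0798 for Itgax, and 0.116 and 0.0919 for Itgam. Those of Itgav were 63.7 and 54.6 against Itgb5 and to 160 and 208 against Itgb3, and were 704 and 344 against Itgb8. Every one of 12 pairs stayed on the same side of 1 in each of its 5 alternatives. These were the second quantification, coding transcripts, FPKM and each library alone. The last 3 are weak checks: FPKM scales all genes of a library alike, and the single libraries make up the main ratio.

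The cytoplasmic partners were led by talin and paxillin. Tln1, which encodes talin, the linker that activates integrins from inside, was at 118 and 172 TPM. Only 54.4 and 53.2 TPM of this lay on the full-length coding transcript Tln1-201. A further 34.2 and 67.7 TPM lay on Tln1-204, a processed transcript of 283 bases, and coding transcripts held 96.6% and 92.6% of the gene's counts. The higher Tln1 level of replicate 2 in TPM thus lay on its short transcripts, and Tln1-201 was 1.22 TPM lower there.

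Pxn, the adaptor paxillin, was at 132 and 142 TPM, of which 70.4% and 65.3% was on retained intron transcripts. Ptk2b, the kinase Pyk of macrophage adhesions, was at 35.9 and 38.4 TPM. Its relative Ptk2, the focal adhesion kinase known from matrix-bound cells, was at 1.54 and 2.9 TPM, and its coding transcripts at 0.58 and 1.84 TPM. Ptk2b was thus far above Ptk2 in both libraries.

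Fermt3, the kindlin of blood cells, was at 24.7 and 26 TPM, and the more widely expressed kindlin gene Fermt2 had 0 and 1 counts. Tln2, the second talin gene, was at 0.07 and 0.08 TPM. Of these pairs of relatives, Ptk2b, Fermt3 and Tln1 were the higher in both libraries. Ilk, the scaffold that joins beta chains to actin, was at 18.5 and 27.1 TPM, and Vcl, the actin linker vinculin, at 12.2 and 20.6 TPM. Ilk overlaps Taf10 on the other strand over 2106 exonic bases and Vcl overlaps Ap3m1 over 2090, and sharing of reads there was not tested.

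Transcripts annotated as retained introns existed for 14 of the 22 expressed genes. Their share of gene TPM ran from 21.3% in Itgb1 to 67.9% in Pxn as means of both libraries, with a median of 38.7%. For the 5233 expressed protein-coding genes with such a transcript the median was 45.9%. In estimated counts the medians were 29.8% and 29.3%. The mean share of TPM was above 50% in 4 of the 14 genes (Pxn, Selplg, Icam1 and Ptk2b) and in 2256 of the 5233. In the second quantification it was above 50% in 3 of the 14 genes and in 2213 of the 5233. Of these 3, only Selplg (68.7%) was among the earlier 4. The others were Ptk2 (89.2%) and Itgax (56.8%), while Icam1 was at 48.1%, Ptk2b at 49.2% and Pxn at 42.5%. In the first quantification the share differed most between libraries in Ptk2 (62.1% and 36.8%) and Ptk2b (41.9% and 62.1%).

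The short length of some of these transcripts set how far TPM and counts differed. Itga5 had 36.1% and 35.7% of its TPM on retained intron transcripts but 3.27% and 3.23% of its counts. Itgax had 38.8% and 36.9% of TPM and 2.72% and 3.46% of counts. In 9 genes (Cd44, Icam1, Pxn, Vcam1, Selplg, Fermt3, Vcl, Ptk2 and Ptk2b) the mean share was over 25% by either measure. Itga4, Tln1, Itgb2, Itga9, Itgal, Itgam, Itgb5 and Itga6 have none with a value. In Itga4 the coding transcript Itga4-201 held 61.7% and 70.3% of the counts, and the rest lay on shorter processed transcripts.

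The donors that 4 further retained intron transcripts read through are printed as examples beside that of Icam1, from genes with over 10% of TPM and of counts on such forms. The last 15 exon bases are in lower case and the first 15 intron bases in capitals.
Pxn-204, intron 6: ctgtcagatttcaagGTGCCCTGTGACCCT
Itgav-203, intron 4: ctccatgcaggtcaaGTATGTATGAAAAGC
Vcam1-204, intron 6: ctctttatgtcaacgGTAAGTGCATACATG
Vcl-203, intron 8: tgacctccgagccagGTAAGGGTCCTCTCC

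Every one of these introns begins with GT. Those of Pxn and Itgav lie at chromosome 5, 115546949 to 115551850, and chromosome 2, 83755921 to 83761867. Those of Vcam1 and Vcl lie at chromosome 3, 116116152 to 116117222, and chromosome 14, 20995993 to 21001130. In this order the transcripts hold 2808, 877, 595 and 2789 bases of them. Vcam1-204 also holds 3172 of the 3254 bases of intron 5, without its donor. Pxn-204 also holds 85 of the 311 bases of intron 2, without its donor.

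**Figure D3:**
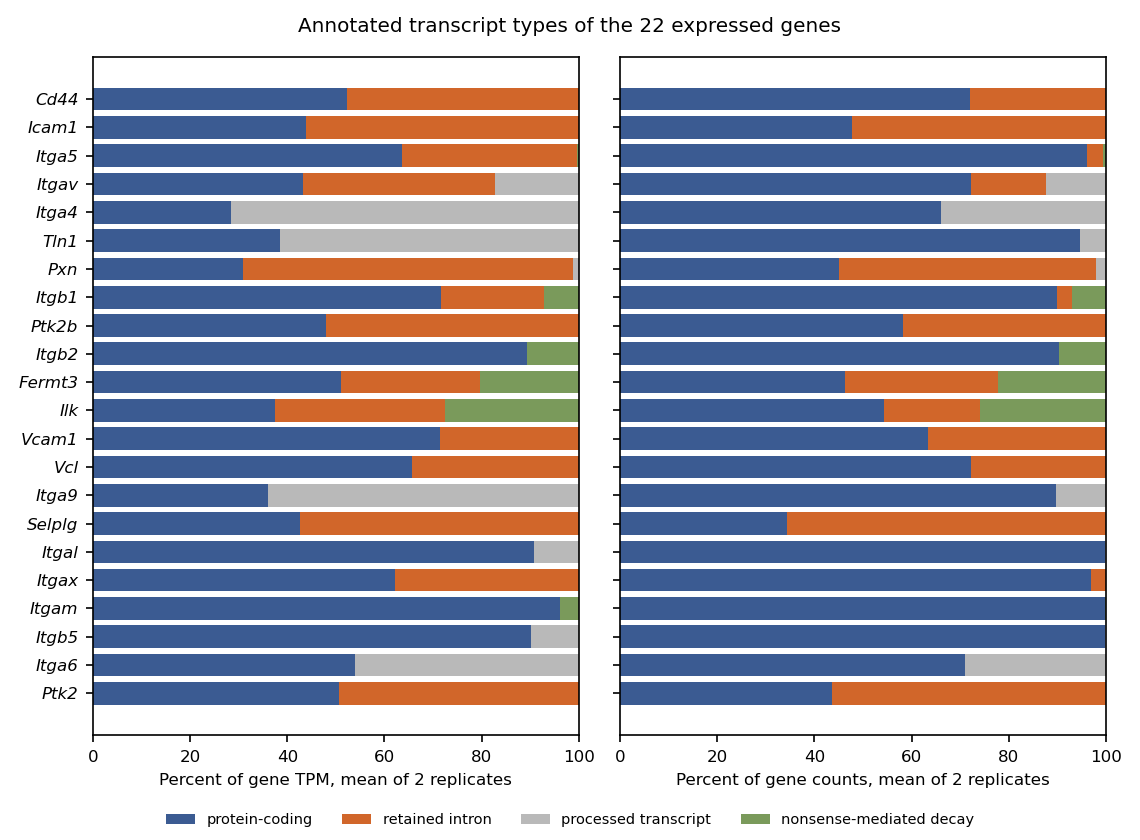
Percent of each expressed gene's TPM (left) and of its estimated counts (right) on the annotated transcript types, as means of 2 replicates, with genes in order of level. Itga5, Itgb1 and Itgax have a wide retained intron band on the left and a thin one on the right, while Icam1, Pxn and Selplg have a wide band in both panels.

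The libraries themselves differed in several of these genes. For this, estimated counts were scaled by TMM, which sets the bulk of genes equal, and 29 of the 37 genes had a summed count of at least 20. With 1 library against 1 there is no replicate check and no test: a gene was called at a fold of 2 or more, and intervals cover counting error only. On this scale 0 genes were called higher in replicate 2, where 8.67% of 14442 genes were, and 6 were called lower (20.7%), where 5.59% of all genes were. The median log2 ratio was -0.53 for the 29 and 0.01 for all genes measured. Relative to expressed protein-coding genes it was -0.41, with 9 genes above their median and 20 below.

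The 6 genes lower in replicate 2 in the first quantification were integrin chains. Itga9 was 2.54-fold lower (interval 2.33 to 2.76), Itgax 2.38-fold lower (2 to 2.84) and Itgam 2.36-fold lower (2.06 to 2.7). Itgb3, from 130 and 125 counts, was 2.19-fold lower (1.7 to 2.82). Itgb2 was 2.04-fold lower (1.93 to 2.15) and Itga5 2.03-fold lower (1.99 to 2.06). Ptk2b and Itga6 were just outside the limit at 1.96-fold lower, as were Tln2 at 1.98 and Tln1 at 1.92. Of the 9 macrophage markers, 1 was called lower on the same scale (Csf1r, 2.23-fold lower). Short of that limit, Spi1 was 1.69-fold lower, Lyz2 1.62-fold, Cd68 1.18-fold, Mertk 1.12-fold and Cd14 1.06-fold lower in replicate 2. The others were higher there, Adgre1 at 1.07-fold, Fcgr1 at 1.04-fold and Mpeg1 at 1.52-fold in replicate 2 over replicate 1. The part of macrophage content in these differences was not tested. In bulk libraries, fewer cells of a type and less RNA per cell cannot be told apart.

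By role, in the first quantification the 3 leukocyte alpha chains and the 8 cytoplasmic partners with enough counts all lay below the protein-coding median. The other alpha chains were split, 3 above and 4 below, as were the beta chains, 3 and 3. At the upper end were Cd44, 1.43-fold higher in replicate 2 (1.42 to 1.45), Selplg at 1.39-fold and Itgb8 at 1.38-fold. Tln2 rested on 16 and 17 counts, and the interval of its 1.98-fold lower value was 0.938 to 4.18. In the second quantification the protein-coding median log2 ratio was -0.16. There the partners Tln2 (0.16) and Ptk2 (0.08) and the leukocyte alpha chain Itgad (0.23) lay above it.

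The direction depended on the scaling. TMM placed the log2 ratio 0.61 lower than library size alone did. With library size alone 4 genes were called higher (Cd44, Selplg, Itgb8 and Itga2, at 2.01- to 2.19-fold), where 28.6% of genes were, and 0 were called lower, where 1.08% were. With DESeq2 size factors, 0 genes were called higher, where 9.99% were, and 4 of the 6 kept the lower call (Itga9, Itgax, Itgam and Itgb3), where 4.63% of all genes had it. A scaling moves all genes by the same amount, so in the first quantification Cd44 was the highest and Itga9 the lowest of the 29 under each.

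**Figure D4:**
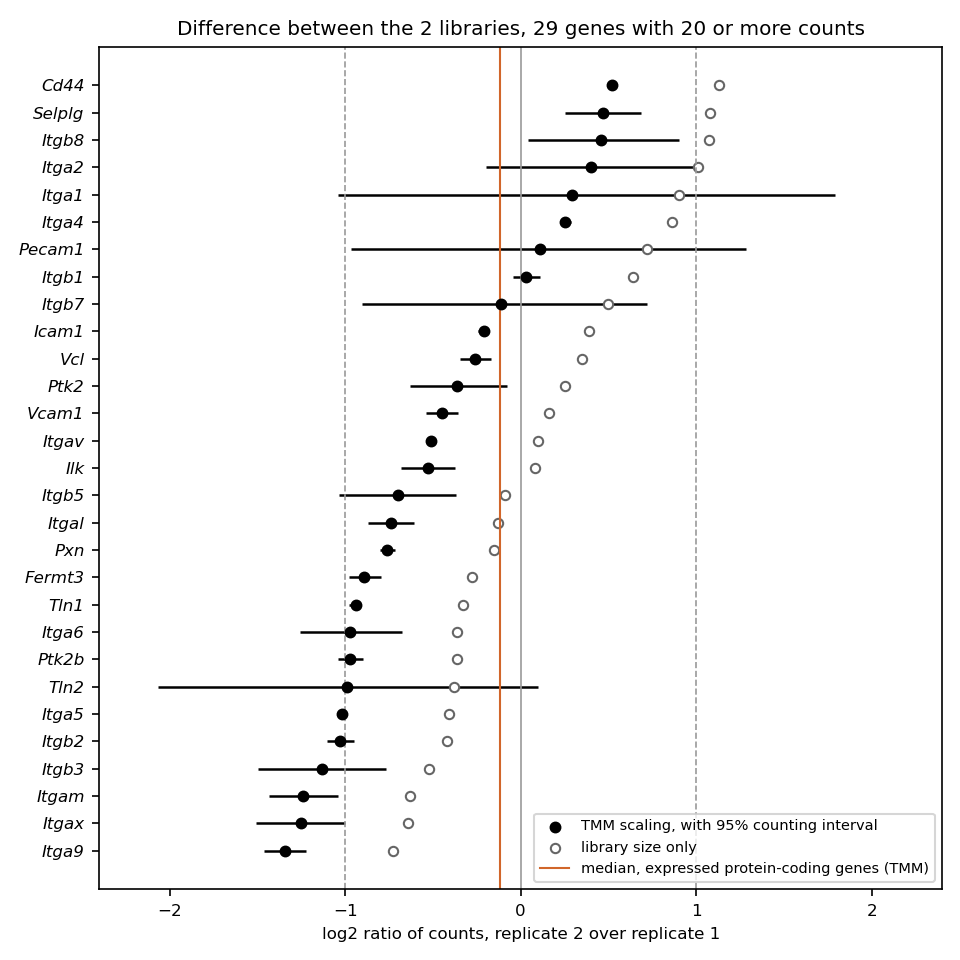
Log2 ratio of estimated counts, replicate 2 over replicate 1, for the 29 genes with enough counts, with TMM scaling (filled, bars are 95% counting intervals) and library size only (open); dashed lines mark 2-fold and the coloured line the median of expressed protein-coding genes. The 6 genes left of the lower dashed line by TMM are Itga9, Itgax, Itgam, Itgb3, Itgb2 and Itga5, and by library size alone none lies there.

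In the second quantification 29 of the 37 genes were expressed (78.4%), where 44.9% of protein-coding genes were. Of the 15 genes not expressed in the first, 7 were expressed in the second (46.7%), where the share was 16.1% of such protein-coding genes. These were Pecam1, Itga7, Tln2, Itgad, Fermt2, Itga1 and Itgb7. Pecam1 went from 0.14 and 0.29 TPM to 3.36 and 8.67 TPM, Itga7 from 0.12 and 0.14 to 3.26 and 8.57, and Fermt2 from 0 and 0.05 to 3.15 and 6.16.

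In 6 of these genes most of the added level sat on a single transcript, and in 5 of the 6 it was a retained intron form. How often this held among other such protein-coding genes is not given here, so it is not read as particular to the set. Itga7-205 went from 0 in both libraries to 3.14 and 8.42 TPM, Pecam1-208 from 0.02 in both to 3.19 and 7.97, and Fermt2-206 from 0 in both to 3.08 and 6.01. Tln2-208 and Itga1-204 were the other two. The exception, Itgad-203, is a short coding entry of 404 bases that went from 0 in both to 2.99 and 8.18 TPM. The share of 31-base stretches that these transcripts have in common with other genes, on either strand, was 33.7% for Itga1-204, 16.8% for Itgad-203, 9.04% for Pecam1-208, 6.89% for Fermt2-206, 3.41% for Itga7-205 and 2.79% for Tln2-208. Its part in the difference was not tested.

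Among the 22 genes expressed in the first, only Ptk2 was at least 2-fold higher in the second in both libraries, at 4.09 and 9.91 TPM, where 17.1% of expressed protein-coding genes were. Icam1, at 273 and 463 TPM in the second, and Itgb2, at 41.7 and 41.5 TPM, were close to their first values. Itgb1 was 1.69 and 1.91 times as high in the second and Pxn 1.38 and 1.54 times. Itgam was at 4.15 and 5.08 TPM, or 0.991 and 1.72 times its first values. In the second, 9 of 34 genes with enough counts were 2-fold or more lower in replicate 2, where 5.3% of genes were, and 0 were higher, where 5.61% were. Itgam, at a log2 ratio of -0.86, was no longer among them. Of the 9, 3 were cytoplasmic partners: Tln1 at a log2 ratio of -1.04, Ptk2b at -1.05 and Fermt3 at -1.10.

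**Figure D5:**
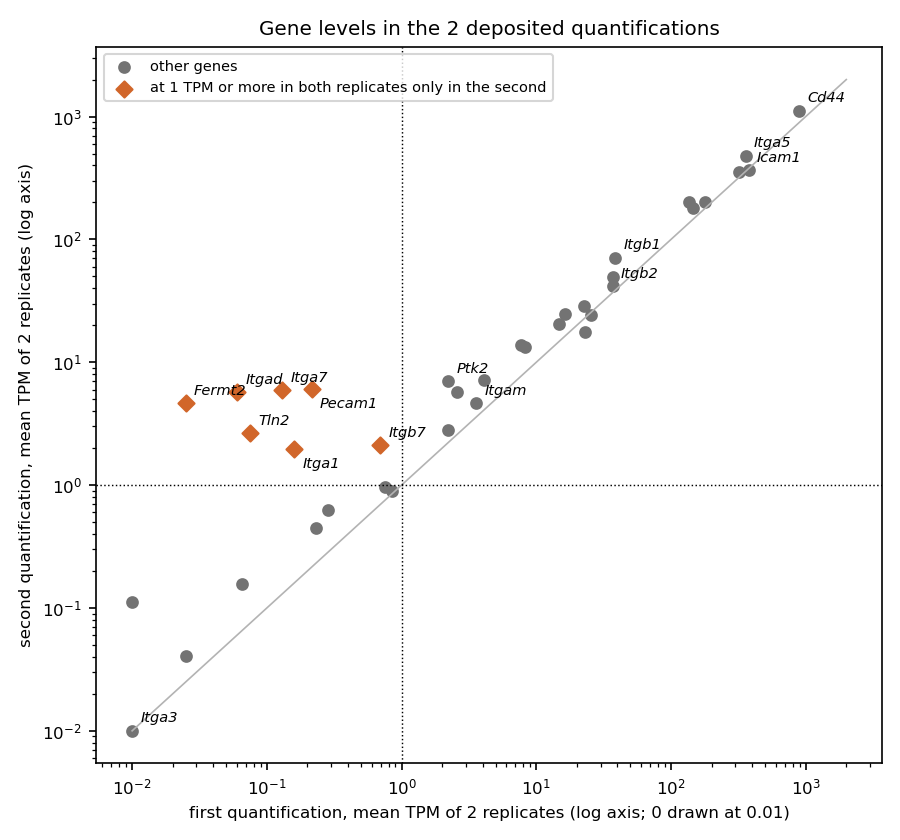
Mean TPM of both replicates in the first against the second quantification (log axes; 0 drawn at 0.01; diagonal, equal levels; dotted lines, 1 TPM), with diamonds for genes at 1 TPM or more in both replicates only in the second. The 7 diamonds lie above the diagonal at under 1 TPM in the first, while Cd44, Icam1 and Itgb2 lie near it.

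Around these genes, the signalling and scaffold genes of adhesion were largely present. Of 18 kinases and adaptors that act after integrin binding, 15 were expressed, led by the kinase Syk (451 and 618 TPM), the Rac activator Dock2 (176 and 248 TPM) and Vav3 (129 and 187 TPM), and 0 of 18 with enough counts were called lower or higher between the libraries, where 5.59% and 8.67% of all genes were. Of 16 genes that act on integrins from inside, 11 were expressed, led by the adaptor Fyb (367 and 529 TPM), the Rap activator Rapgef2 (159 and 171 TPM) and Apbb1ip, which joins Rap to talin (69.2 and 105 TPM). Of 14 of these with enough counts, 2 were called lower in replicate 2, Rapgef1 and Rasgrp2, and 0 higher. The calls in the lists that follow stand beside the same shares over all genes.

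Of 20 scaffold and actin-linking genes, 15 were expressed, led by Flna (146 and 87.5 TPM), Actn1 (83.1 and 96.3 TPM) and Vasp (78.1 and 86.6 TPM). Flna, the filamin that competes with talin for beta chain tails, was 3.57-fold lower in replicate 2 and Tns1 2.01-fold lower, the 2 calls among 16 with enough counts. Of 8 integrin inhibitors and trafficking genes, 7 were expressed, with Mdfic (80.4 and 270 TPM) first and 2.04-fold higher in replicate 2, although its known partners are transcription factors and its place in that list is unsure. Sharpin, an inhibitor of integrin activation, was at 13.4 and 22.5 TPM, and Snx17, which recycles beta chains, at 13.4 and 13.8 TPM. All 7 tetraspanins were expressed, with Cd63 (45.3 and 69.2 TPM) first, and Cd151, known to bind laminin receptors, was 2.38-fold lower, the only call among the 7.

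Fewer of the remaining adhesion genes were present. Of 15 other receptors and ligands found, 4 were expressed: Cd47 (23.8 and 48.1 TPM), Glg1 (2.44 and 3.13 TPM), Sele (2.07 and 1.92 TPM) and Cd99l2 (1.09 and 2.03 TPM). Sele, the endothelial selectin, was 2.11-fold lower in replicate 2, the only call among 8 with enough counts. Of the 5 integrin chains outside the set, only the platelet chain Itga2b was expressed, at 1.29 and 1.32 TPM and 2.05-fold lower in replicate 2 by TMM. In the second quantification 3 of the 5 were expressed, with Itgb6 at 1.95 and 5.19 TPM and Itga11 at 1.14 and 2.37 TPM added. The other receptors and ligands then went from 4 to 6, with Jam2 and Thy1 added, and the remaining pathway lists changed by at most 1 gene. Of 8 megakaryocyte and platelet markers, Itga2b and Pf4 (3.7 and 3.68 TPM) were expressed, and the markers had a summed level of 5.39 and 5.27 TPM. Of 7 neutrophil markers only Csf3r (17.7 and 25.6 TPM) was expressed, while Ly6g, Elane, Mpo and Retnlg were listed at 0.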

How the data were processed

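Chromatin-associated RNA from 2 libraries of 1 group was analysed, with replicate numbers taken from the labels. The authors deposited estimated (expected) counts, TPM and FPKM per gene and per transcript, which rest on reads aligned to the mm10 transcriptome (GENCODE M21), per the text deposited with each library. Another deposited table, the second quantification, gives the authors' estimated counts and TPM per transcript from the reads without alignment files; its gene values are sums over transcripts. Column names are those of RSEM and kallisto; aligner, quantifier, versions and use of strand were not stated in the sources used here. The members and gene lists were chosen with earlier results of these data known. Genes described in full were those at 10 TPM or more in both replicates, those 2-fold or more apart, and Itgam, Itgb2, Itgal, Itgax, Itgad, Icam1, Vcam1 and Cd44; of each pathway list, the 3 highest and those past 2-fold. A few other genes were named after their values were seen.

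Expected counts were rounded, and rows that name no annotated gene were left out of library sizes. TMM factors (edgeR 4.0.16, R 4.3.3) of 0.8096 and 1.235 came from genes whose counts summed to at least 20. Ratios carry exact (Clopper-Pearson) 95% binomial intervals, which cover counting error only, as does the floor of 3 counts. The ratio script was tested on simulated data. No p-value was computed. Alternatives were other scalings (library size, DESeq2 1.42.0), count minimums, thresholds, FPKM, TPM + 1 and TPM + 0.1, TPM rescaled to protein-coding genes, the second quantification and each library alone. Values relative to protein-coding genes and those from coding transcripts only were added after seeing the data. Sequences came from the GENCODE M21 transcripts and RefSeq promoters (GRCm38.p6).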

Additional observations from a re-analysis of the deposited data

How the results depend on the processing

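The number of expressed genes of the set was 22 and ran from 16 (at 5 TPM) to 29 (second quantification) over its alternatives, with 22 to 23 when each library was taken alone. With library size in place of TMM, the genes 2-fold or more higher in replicate 2 went from 0 to 4 and those lower from 6 to 0. The median log2 ratio of the members was -0.53 by TMM and turned to 0.08 by library size, to 0.27 with TPM + 1 and to 0.43 with TPM + 0.1. Only the counts scaled by TMM or DESeq2 factors set the bulk of genes near 0. It was -0.70 with a summed count of 100 or more, and relative to protein-coding genes -0.60 in place of -0.41. The latter value lay between -0.41 and -0.40 in its other alternatives. The median level over all 37 genes was 3.56 TPM as the mean of the libraries' medians, and 4.45 in FPKM, 6.66 TPM in the second quantification, 20.8 TPM when rescaled to protein-coding genes, 2.35 TPM on coding transcripts only, and 2.96 to 4.15 TPM with a library left out. The median retained intron share was 38.7% of TPM and 29.8% of counts, with 37.1% to 40.2% when a library was left out. The cause of these moves was not tested, apart from those that the scaling itself makes. No paired analysis was possible because the series has a single group. Ratios were not computed for the 8 genes with a summed count under 20.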
